A study of Mus musculus with 13 samples.

Results

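The stretch of mouse chromosome 14 between 50 and 85 Mb (GRCm38, GENCODE M21 positions) holds 394 protein-coding genes by their start positions, taken as the lower coordinate of each gene. It was singled out with the difference between *Nod2*-/- and wild type (WT) livers in view. By the same choice 10 of its genes, *Cebpe*, *Klhl33*, *Phyhip*, *Ppp1r3e*, *Arhgef40*, *Pcdh17*, *Trim13*, *Ccdc122*, *Lacc1* and *Mmp14*, were left out, and 384 genes remained. Of these, 196 had at least 10 read counts in at least 6 libraries and are called the segment genes here, out of 53465 genes in the table. All but *Rnase13* were also tested for a difference between genotypes, which gave 195 tested segment genes among 13545 tested genes in all. The other 188 genes fell under the count rule, and 78 of them had no read in any library. Those 188 included 34 olfactory receptor genes and all 15 listed granule serine protease genes of the segment (granzymes, mast cell chymases and cathepsin G).

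RNA sequencing was done on livers of 6 WT and 7 *Nod2*-/- male BALB/c mice, 1 library per mouse. Every mouse of both genotypes had been given the carcinogen DMBA (7,12-dimethylbenz[a]anthracene, painted on the skin of pups) and a high-fat diet, the labels give 30 weeks for both diet and age, and all 13 carry cancer as their disease label. The study's methods give a slightly longer diet than the labels. The study reports liver tumors in a larger share of male *Nod2*-/- mice than of male WT mice treated this way, which the shared disease label does not show. The labels give no tumor number or size for any liver, so tumor content and genotype cannot be told apart. NOD2 is an intracellular sensor of bacterial peptidoglycan fragments, and the *Nod2* gene lies on chromosome 8. The WT and *Nod2*-/- mice were 2 breeding lines kept in 1 room, each drawn from several cages and breeder pairs, so the loss of *Nod2* and any other inherited difference between the lines cannot be told apart in these data. Total counts ran from 14886273 to 20579984 in WT livers and from 13824780 to 19391431 in *Nod2*-/- livers. *Nod2* itself had between 0 and 4 counts in the WT livers and between 1 and 6 in the *Nod2*-/- livers, too few for the table to check the genotype labels.

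A chromosome segment is a neighborhood and not a pathway. Its genes are placed next to each other by ancestry, most are read from promoters of their own, and neighbors often serve unrelated functions. What neighbors do share is inheritance, since genes that lie close together pass from parent to offspring as a block. In a knockout line kept apart from its WT line, a block of DNA can therefore carry sequence variants of its own. The table holds counts and no genotypes, so such variants were not analysed here.

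The segment carries genes of several trades that liver uses. *Clu* makes clusterin, a secreted chaperone, *Ephx2* makes soluble epoxide hydrolase, *Gulo* makes the last enzyme of vitamin C synthesis, and *Rnase4* and *Ang* make secreted ribonucleases. *Psmb5* makes a catalytic subunit of the proteasome, *Psme1* and *Psme2* make a proteasome activator induced by interferon, and *Sftpc* makes a surfactant protein of lung alveolar cells. *Cnmd* (chondromodulin) is known from cartilage and *Chrna2* is a subunit of a neuronal acetylcholine receptor.

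All 5 hepatocyte markers examined (*Alb*, *Apoa1*, *Ttr*, *Cps1* and *Serpina1c*) were abundant in each library. Their summed normalized counts had a median of 1621480 in WT and 1672340 in *Nod2*-/- livers, and none of them passed the test. Some libraries stood apart in other ways. Among the 6 WT livers, replicate 3 held the top value for 50 of the 195 tested segment genes and the bottom value for another 59. It held the top value for 28.0% of all genes tested, beside 25.6% in the segment. *Nod2*-/- replicate 7 had a summed neutrophil marker count of 15459, where the median of its group was 325 and the highest WT liver had 130. WT replicates 2 and 4 were the 2 livers with the most RNA of lung epithelium genes, described further on. Among the other marker lists, the only marker past the FDR was the cholangiocyte gene *Sox9* (log2 fold change 1.29, adjusted p = 0.0324). Of the 4 cholangiocyte markers, all tested, only 2 had a fold change above 0, and *Sox9* was the most abundant. The 4 markers summed to between 68.7 and 218 normalized counts in WT livers and between 138 and 236 in *Nod2*-/- livers. Median sums were 954 in WT and 511 in *Nod2*-/- livers for the 6 pancreas acinar markers. Nearly all of it was *Cela1*, since the other 5 had at most 3 counts in any liver. For the 5 mast cell markers the median sums were 22.4 and 46.6, with *Kit* the most abundant. Only 1 of these 5 had enough counts to be tested, and 2 had at most 3 counts in any liver. For erythroid markers the median sums were 5967 and 8614. They were 65.0 and 71.9 for T cell, 216 and 235 for B cell, 2496 and 2717 for endothelial and 3490 and 3847 for stellate cell markers. A fold change above 0 was found for 4 of the 5 endothelial markers but for only 2 of the 5 stellate cell markers. The part of any of these cells in the values of segment genes was not tested.

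The segment as a whole took a like share of the reads in both genotypes. Its 196 genes made up 1.60% ± 0.04 of a library's counts in WT livers (SD, n = 6, range 1.53% to 1.63%) and 1.60% ± 0.11 in *Nod2*-/- livers (SD, n = 7, range 1.44% to 1.75%). The *Nod2*-/- range enclosed the WT range. A total of this kind is carried by few genes. *Clu*, *Rnase4*, *Ephx2*, *Ndrg2* and *Itm2b* together made up 42.8% of the segment's counts, and without them the median share was 0.908% in WT and 0.918% in *Nod2*-/- livers.

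The direction of the differences was also balanced. Of the 195 tested genes, 95 had a fold change above 0 and 100 below 0 for *Nod2*-/- against WT. Their median log2 fold change was -0.01 (quartiles -0.20 and 0.27), beside 0.02 over all 13545 genes. The size of the differences, taken without its sign, had a median of 0.22 on the log2 scale, beside 0.18 over all genes, 0.18 for 11725 protein-coding genes of other chromosomes and 0.18 for 210 protein-coding genes of chromosome 14 outside the segment. Among the segment genes 11 (5.64%) had a log2 fold change of 1 or more in size, against 4.33% of all genes tested.

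A false discovery rate (FDR) of 5% was passed by 10 segment genes, tested in edgeR by quasi-likelihood with p-values adjusted (Benjamini-Hochberg) across the 13545 genes. *Psmb5*, *Sall2*, *Chmp7* and *Ajuba* were higher in *Nod2*-/- livers, and *Spryd7*, *Ngdn*, *Haus4*, *Slc25a30*, *Cnmd* and *Pnp2* were lower. The 10 genes are 5.13% of the tested segment genes, beside a background of 1.16% of all genes tested (0.65% higher and 0.509% lower in *Nod2*-/- livers). Since the segment was chosen from this same contrast, the 2 shares are printed as a description and nothing is read from their difference. At an unadjusted p under 0.05 there were 71 segment genes (36.4%), 37 higher and 34 lower, beside 23.1% of all genes. In 8 tested segment genes the 2 genotypes did not overlap in any mouse (4.10%, beside 1.44% of all genes), and these 8 were also split evenly, 4 higher and 4 lower. Both the 10 and the 8 include *Pnp2*, which met the count rule through WT livers alone and so had to differ. Tested with DESeq2 instead, 32 segment genes passed, the 10 among them, beside 8.41% of all genes. The count also moved with single mice. It was 3 without WT replicate 1, WT replicate 2, WT replicate 4 or *Nod2*-/- replicate 7, and in each of these refits *Pnp2*, *Haus4*, *Ajuba*, *Ngdn*, *Chmp7*, *Slc25a30* and *Cnmd* were the genes that lost their call. It was 29 without WT replicate 3, 1 (*Spryd7*) without WT replicates 2 and 4 together, and 2 (*Psmb5* and *Spryd7*) with the replicate number as a block. Outside the segment, 1 of the 210 protein-coding genes of chromosome 14 passed in edgeR.

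**Figure D1:**
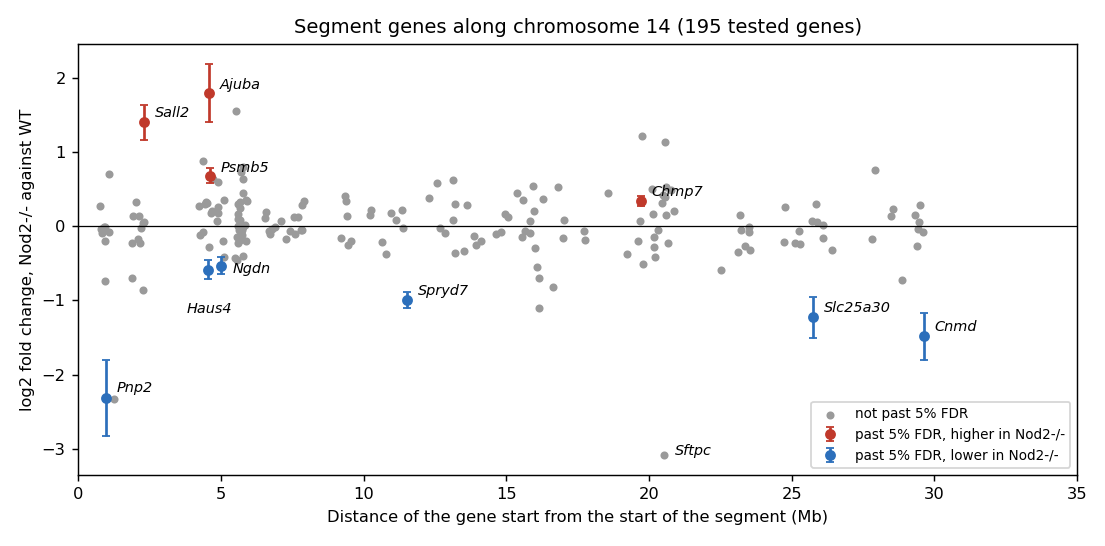
Log2 fold change of *Nod2*-/- against WT livers (y axis) of the 195 tested segment genes by distance of their start from the first base of the segment in Mb (x axis). Colored points with bars (± SE) are the 10 genes past 5% FDR, red higher and blue lower in *Nod2*-/- livers, and grey points are the other tested genes. Points above and below 0 are found along the stretch up to *Cnmd*, the last of the genes plotted, and the left-out *Pcdh17*, which lies past it, is not drawn.

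Along the segment the differences did not form 1 continuous stretch in 1 direction. In successive windows of 5 Mb, from 50 Mb on, the number of genes past the FDR was 5 of 41 tested, 1 of 54, 1 of 25, 1 of 27, 0 of 26 and 2 of 22. The last window, from 80 to 85 Mb, held none of the expressed segment genes, and the only protein-coding gene tested there was *Pcdh17*, one of the genes left out. The window from 50 to 55 Mb thus held 5 of the 10 genes, and it also held 5 of the 10 left-out genes. The window from 70 to 75 Mb held none, and 14 of its 26 genes had an unadjusted p under 0.05. Over all genes tested, 1.16% passed the FDR and 23.1% had an unadjusted p under 0.05. Nothing is read from the counts of single windows. Medians of the log2 fold change lay between -0.06 (65 to 70 Mb) and 0.05 (50 to 55 Mb). Their median size was largest from 65 to 70 Mb, at 0.34, and smallest from 55 to 60 Mb, at 0.18.

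In finer windows of 2.5 Mb, the direction was uneven in places. From 52.5 to 55 Mb, 14 of 18 tested genes had a fold change above 0, the median was 0.27, and *Haus4*, *Ajuba* and *Psmb5* passed the FDR. From 72.5 to 75 Mb, 8 of 10 tested genes had a fold change below 0, with a median of -0.14 and no gene past the FDR. Over all genes tested, 52.3% had a fold change above 0 and 1.16% passed. The difference of these windows from other genes was not tested. Neighboring genes agreed in sign about as often as not. Of 194 adjacent pairs of tested segment genes, 101 (52.1%) had fold changes of the same sign, and the correlation between the fold changes of neighbors was -0.05 across genes, which are not independent replicates. Within a genotype, the mouse-to-mouse deviations of adjacent genes had a median correlation of 0.06 over the 13 livers, against 0.01 for genes 20 or more places apart. These correlations share libraries and normalization and are a description.

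**Figure D2:**
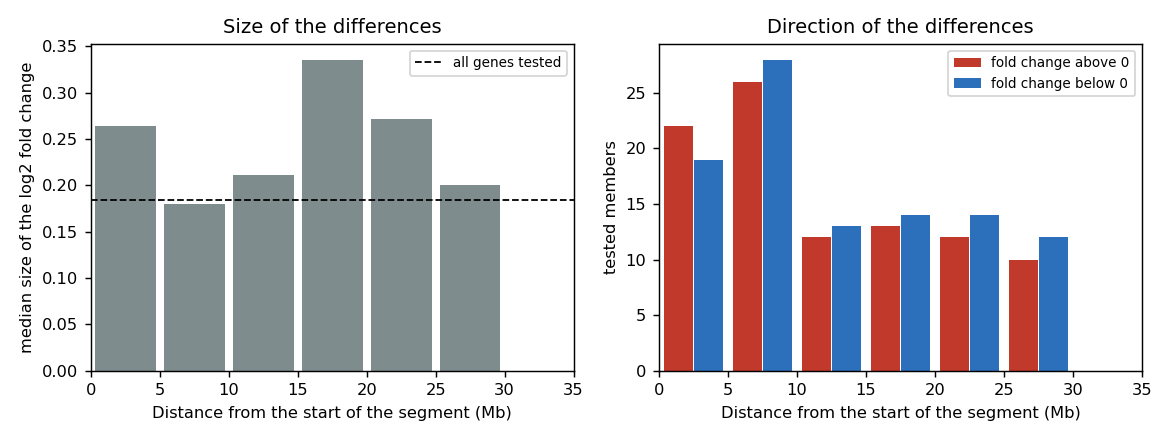
Tested segment genes in successive 5 Mb windows by distance from the start of the segment (x axis, Mb). The left bars give the median size of the log2 fold change per window (dashed line, all 13545 genes tested) and the right bars count genes with fold changes above 0 (red) and below 0 (blue), which are close to even in every window while the median size runs from 0.18 to 0.34.

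The position limits were taken from the rule and fall in gaps of expressed genes. The first segment gene was *Ttc5* (chromosome 14, 50765415 to 50785519), which had a log2 fold change of 0.27 ± 0.12 (SE, adjusted p = 0.185). The last was *Cnmd* (79637690 to 79662170). The nearest tested protein-coding gene before the segment, *Naa30*, had a log2 fold change of 0.13 (adjusted p = 0.312), and the nearest one after it, *Tdrd3*, had -0.19 (adjusted p = 0.289). At the count threshold, the sixth-highest count was 12 for *Ltb4r1*, *Cbln3*, *Slc22a17* and *Rnase13*, just inside, and 9 for *Phf11a* and 8 for *Gm21750*, just outside. Of the 196 segment genes, 178 had at least 10 counts in every liver. *Pnp2* alone passed the rule through 1 genotype, with 14 to 53 counts in WT and 0 to 9 in *Nod2*-/- livers, and *Rnase13* had 12 to 16 counts in WT and 2 to 10 in *Nod2*-/- livers. A gene that enters through 1 group in this way had to differ.

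*Spryd7*, a SPRY domain protein gene with a little-studied function (ENSMUSG00000021930, 61531993 to 61556886, minus strand), had the smallest p in the segment. Its normalized counts were 327 at the lowest, 383 at the median and 434 at the highest in WT livers, and 145, 208 and 215 in *Nod2*-/- livers. The highest *Nod2*-/- liver was thus well under the lowest WT liver, and *Nod2*-/- replicates 3 (153) and 5 (145) lay below the other 5 *Nod2*-/- livers (203 to 215). Means were 385 ± 36.8 (SD, n = 6) and 193 ± 30.1 (SD, n = 7), a log2 fold change of -0.998 ± 0.111 (SE, adjusted p = 0.000228). *Spryd7* starts 66.3 kb before *Trim13*, 1 of the left-out genes. It kept its call in every refit that was made, including those without 1 or 2 mice.

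*Psmb5* (ENSMUSG00000022193, 54614119 to 54618022, minus strand) encodes the beta 5 subunit of the 20S proteasome, which carries the chymotrypsin-like activity of the standard particle. Its normalized counts were 538, 767 and 793 (lowest, median, highest) in WT livers and 1034, 1104 and 1330 in *Nod2*-/- livers. No WT liver reached the lowest *Nod2*-/- liver, and the lowest WT value was that of replicate 3. The means were 718 ± 101 (SD, n = 6) and 1151 ± 114 (SD, n = 7), a log2 fold change of 0.68 ± 0.10 (SE, adjusted p = 0.00435). With WT replicates 2 and 4 both left out the fold change was 0.68 again and the adjusted p was 0.0524.

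None of the other 20S subunit genes passed the FDR. The 14 subunit genes lie on 10 chromosomes, and the other 13 had log2 fold changes from -0.22 (*Psmb7*) to 0.11 (*Psmb4*), with 11 of them below 0 and adjusted p between 0.201 and 0.923. The immunoproteasome subunits *Psmb8*, *Psmb9* and *Psmb10*, which replace the standard catalytic subunits in interferon-stimulated cells, had fold changes of 0.51, 0.45 and 0.23 and none passed the FDR. *Psmb8* is the immunoproteasome counterpart of *Psmb5*, and its adjusted p was 0.0740. The subunit lists of these complexes were drawn up after the values of *Psmb5* and *Haus4* were known.

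**Figure D3:**
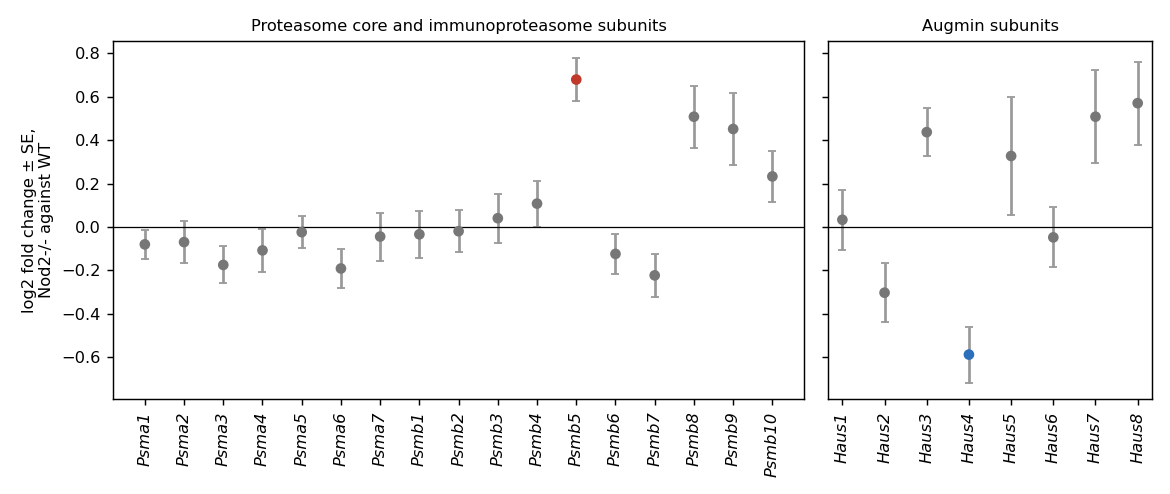
Log2 fold change ± SE (y axis, *Nod2*-/- against WT) of each subunit gene of the 20S proteasome core and of the immunoproteasome (left) and of augmin (right). Only *Psmb5* (red, 0.68) and *Haus4* (blue, -0.59) passed 5% FDR, both are segment genes, and no other 20S core subunit exceeded 0.22 in size.

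*Haus4* (ENSMUSG00000022177, 54541785 to 54554616, minus strand) encodes a subunit of augmin, a complex that nucleates microtubules within the mitotic spindle. It had 246, 288 and 350 normalized counts (lowest, median, highest) in WT livers and 164, 184 and 278 in *Nod2*-/- livers. The genotypes overlapped through 1 mouse, *Nod2*-/- replicate 6, whose 278 stood above the next *Nod2*-/- value of 196. The log2 fold change was -0.59 ± 0.13 (SE, adjusted p = 0.0427), and the call held in only 2 of the 13 refits that left out 1 mouse. The other 7 augmin genes, all on other chromosomes, had fold changes from -0.30 (*Haus2*) to 0.57 (*Haus8*), the lowest adjusted p being 0.0644 (*Haus3*, 0.44).

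*Ajuba* (ENSMUSG00000022178, 54567472 to 54577558, minus strand), between *Haus4* and *Psmb5*, encodes a LIM domain scaffold protein of cell contacts and Hippo signaling. Its normalized counts were 27.4, 54.5 and 162 (lowest, median, highest) in WT livers and 145, 216 and 439 in *Nod2*-/- livers. WT replicate 3, at 162, was the 1 WT liver to reach the *Nod2*-/- range, in which the lowest value was 145. The log2 fold change was 1.80 ± 0.39 (SE, 3.48-fold, adjusted p = 0.0422). The call held in 4 of 13 refits without 1 mouse, and it was lost under a robust fit. The fold change was 2.31 (adjusted p = 0.00755) without WT replicate 3 and *Nod2*-/- replicate 7, and 1.49 (adjusted p = 0.264) without WT replicates 2 and 4.

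*Prmt5*, *Haus4*, *Ajuba*, *4931414P19Rik* and *Psmb5* are consecutive segment genes within 110.8 kb. Their fold changes were 0.31, -0.59, 1.80, -0.29 and 0.68 in that order, so the sign alternated from gene to gene. Of the 5, 3 passed the FDR, beside 1.16% of all genes tested. The run starts at a gene picked out after its values were seen, so nothing is read from that share. The start of *Haus4* lies 25.7 kb from that of *Ajuba* in the annotation, and the start of *Ajuba* lies 46.6 kb from that of *Psmb5*. *Prmt5*, an arginine methyltransferase gene that was picked out after its values were seen, did not pass (adjusted p = 0.0778), although its 6 WT livers (159 to 216 normalized counts) all lay below its 7 *Nod2*-/- livers (222 to 263).

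The promoters of the neighbors *Haus4*, *Ajuba* and *Psmb5* and of *Spryd7* are printed because the 3 neighbors differed in opposite directions and *Spryd7* had the smallest p. Each line gives the 250 bases before the RefSeq start site on the sense strand of the gene, read in the direction of transcription. They come from the GRCm38.p6 reference, which is the C57BL/6J sequence and not that of BALB/c or of either line studied. Capitals mark matches on either strand to 4 motifs that were searched and that do not overlap each other in these windows. The first is TATAAA, the TATA box that positions the transcription machinery. The second is CCAAT, which is bound by the factor NF-Y. The third is GGGCGG, known as the GC box. The last is TGACNNNGC, core of the antioxidant response element, which is bound by NRF2. *Psmb5* is at chr14:54617996-54618245, *Haus4* at chr14:54554362-54554611, *Ajuba* at chr14:54577662-54577911 and *Spryd7* at chr14:61556887-61557136, all on the minus strand. The *Haus4* window lies inside exons of 2 non-coding transcripts of that gene in GENCODE.
Psmb5: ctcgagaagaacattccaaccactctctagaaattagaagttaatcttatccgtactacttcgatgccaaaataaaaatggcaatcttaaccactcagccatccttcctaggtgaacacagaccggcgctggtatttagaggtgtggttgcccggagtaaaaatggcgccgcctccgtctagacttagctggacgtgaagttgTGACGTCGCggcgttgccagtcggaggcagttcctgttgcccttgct
Haus4: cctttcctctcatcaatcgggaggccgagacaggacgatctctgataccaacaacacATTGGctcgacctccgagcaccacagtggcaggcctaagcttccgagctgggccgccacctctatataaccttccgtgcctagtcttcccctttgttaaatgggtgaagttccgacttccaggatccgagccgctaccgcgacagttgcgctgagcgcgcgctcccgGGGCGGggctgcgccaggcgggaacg
Ajuba: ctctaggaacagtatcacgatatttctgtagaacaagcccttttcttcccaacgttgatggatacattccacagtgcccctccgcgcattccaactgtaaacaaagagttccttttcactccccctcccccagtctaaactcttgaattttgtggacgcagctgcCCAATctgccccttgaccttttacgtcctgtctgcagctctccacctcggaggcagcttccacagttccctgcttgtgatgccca
Spryd7: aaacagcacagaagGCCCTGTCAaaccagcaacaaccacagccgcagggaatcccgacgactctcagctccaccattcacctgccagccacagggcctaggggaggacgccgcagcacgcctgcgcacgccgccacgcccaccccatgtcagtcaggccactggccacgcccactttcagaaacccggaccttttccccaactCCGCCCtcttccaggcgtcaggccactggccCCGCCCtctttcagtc

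The *Psmb5* window held 1 match to TGACNNNGC and none to the other motifs. The *Haus4* window held 1 CCAAT and 1 GGGCGG match, the *Ajuba* window 1 CCAAT match, and the *Spryd7* window 2 GGGCGG matches and 1 TGACNNNGC match. None of the 4 held TATAAA. Among 32851 RefSeq promoters of the same length, TATAAA was present in 12.4%, CCAAT in 33.8%, GGGCGG in 32.7% and TGACNNNGC in 10.2%. RefSeq promoters were found for 128 of the 196 segment genes, and in their 166 promoters the shares were 6.02%, 30.7%, 48.2% and 10.8%. The segment genes had to meet the count rule in liver and the genes of the 32851 promoters did not. The 2 sets are thus unlike, and nothing is read from the difference. A match is a run of letters and not a measured binding site.

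*Sall2* (ENSMUSG00000049532, 52311172 to 52328762, minus strand), a zinc finger transcription factor gene, was low in all livers. It had 7.23, 10.1 and 13.1 normalized counts (lowest, median, highest) in WT and 15.7, 25.5 and 36.9 in *Nod2*-/- livers. The groups did not overlap, and *Nod2*-/- replicate 7 came closest to the WT livers. Its fold change on the log2 scale was 1.40 ± 0.24 (SE, 2.64-fold, adjusted p = 0.0140), and the call held in all 13 refits without 1 mouse but not without WT replicates 2 and 4 together (adjusted p = 0.122).

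*Chmp7* (ENSMUSG00000034190, 69717000 to 69732541, minus strand) encodes a component of the ESCRT-III machinery that reseals the nuclear envelope. It had the smallest fold change of the 10 genes and the least spread. Its normalized counts were 655, 714 and 782 (lowest, median, highest) in WT livers and 861, 905 and 959 in *Nod2*-/- livers. The groups did not overlap, and the coefficient of variation was 8.24% in WT and 3.76% in *Nod2*-/- livers. With a log2 fold change of 0.34 ± 0.07 (SE, 1.26-fold, adjusted p = 0.0326), the call held in 7 of 13 refits without 1 mouse and was lost with no low-count filter.

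*Ngdn* (ENSMUSG00000022204, 55015454 to 55024137, plus strand) encodes neuroguidin, a protein of ribosome assembly and translational control. Normalized counts were 419, 573 and 656 (lowest, median, highest) in WT livers and 326, 378 and 480 in *Nod2*-/- livers. WT replicate 3 was the 1 WT liver inside the *Nod2*-/- range. On the log2 scale the difference was -0.53 ± 0.11 (SE, adjusted p = 0.0422), and 3 of 13 refits without 1 mouse kept the call.

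*Slc25a30* (ENSMUSG00000022003, 75760117 to 75787037, minus strand) encodes a mitochondrial inner membrane carrier expressed in liver and kidney. It had 1135, 2196 and 3286 normalized counts (lowest, median, highest) in WT livers and 434, 792 and 1249 in *Nod2*-/- livers. WT replicate 5 lay inside the *Nod2*-/- range, replicate 4 was level with its upper end, and the other 4 WT livers lay above it. The log2 fold change was -1.23 ± 0.28 (SE, 2.34-fold lower, adjusted p = 0.0484), and the call held in 4 of 13 refits without 1 mouse and was lost under a robust fit.

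*Cnmd* (ENSMUSG00000022025, 79637690 to 79662170, minus strand) had 85.5, 105 and 261 normalized counts (lowest, median, highest) in WT livers and 30.7, 52.9 and 88.8 in *Nod2*-/- livers. WT replicates 1 (243) and 2 (261) stood above the other 4 WT livers (85.5 to 107). One WT liver, replicate 4, lay below the highest *Nod2*-/- liver. The log2 fold change was -1.48 ± 0.32 (SE, 2.80-fold lower, adjusted p = 0.0422), held in 4 of 13 refits without 1 mouse.

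*Pnp2* (ENSMUSG00000068417, 50955992 to 50964749, plus strand) is 1 of a pair of purine nucleoside phosphorylase genes, which release the free base from inosine and guanosine. It had 12.7, 24.7 and 43.4 normalized counts (lowest, median, highest) in WT livers and 0, 5.98 and 8.82 in *Nod2*-/- livers, with 2 *Nod2*-/- livers at 0. The groups did not overlap, and the log2 fold change was -2.31 ± 0.51 (SE, adjusted p = 0.0441, held in 4 of 13 refits). *Pnp2* met the count rule through WT livers alone and so had to differ, and nothing is read from its call or its separation. Its near copy *Pnp* (50931082 to 50965237, the same strand) overlaps it in the annotation and had a log2 fold change of -0.75 ± 0.26 (SE, adjusted p = 0.119), from 367 to 242 normalized counts at the medians. Reads of the 2 genes can be assigned to either, so the value of each is uncertain.

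**Figure D4:**
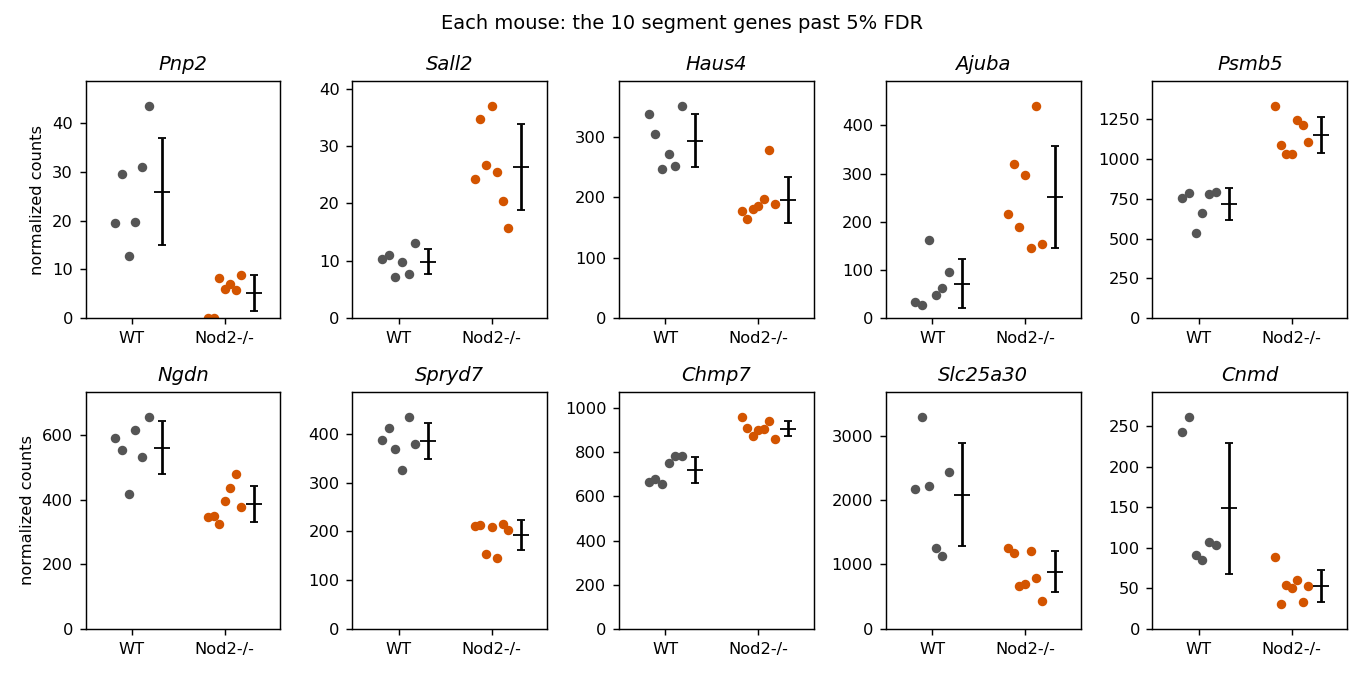
Normalized counts (y axis, linear from 0) of the 10 segment genes past 5% FDR in each of 6 WT livers (grey) and 7 *Nod2*-/- livers (orange), in order along the chromosome, with mean ± SD beside each group. The groups are fully apart for *Pnp2*, *Sall2*, *Psmb5*, *Spryd7* and *Chmp7*, and share part of their range for the other 5 genes. *Pnp2* met the count rule through WT livers alone.

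*Ptk2b*, a calcium-regulated tyrosine kinase gene without a call, was also fully apart and was picked out after its values were seen. It ranged from 682 to 820 normalized counts in WT and from 186 to 543 in *Nod2*-/- livers, with replicate 4 the lowest.

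The most abundant transcripts of the segment encode products of ordinary liver. Per kilobase of exon, *Rnase4* had the highest level, at 15937 normalized counts, followed by *Clu* at 10487, *Ephx2* at 7630, *Tpt1* at 5928, *Gulo* at 5894, *Ndrg2* at 5376, *Itm2b* at 5252 and *Ang* at 3855. The median segment gene was at 65.0 on the same scale. None of these 8 passed the FDR.

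*Rnase4* and *Ang* share a promoter region and their annotated spans overlap on 1 strand, so reads between them are uncertain. Total normalized counts of *Rnase4* were 17854, 28251 and 32067 (lowest, median, highest) in WT livers and 14652, 20508 and 56073 in *Nod2*-/- livers. The highest value of both genes was in *Nod2*-/- replicate 7, the liver with the high neutrophil markers, at 56073 for *Rnase4* and 12232 for *Ang*. The log2 fold changes were -0.08 ± 0.27 for *Rnase4* and 0.70 ± 0.26 for *Ang* (SE, adjusted p = 0.875 and 0.136), and without that liver and WT replicate 3 they were -0.50 and 0.30 (adjusted p = 0.0606 and 0.198). Any part of the leukocytes in these values was not tested.

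*Clu* had 29007, 33931 and 36157 normalized counts (lowest, median, highest) in WT and 33714, 35052 and 55448 in *Nod2*-/- livers. One liver, *Nod2*-/- replicate 4, set the upper end, and the log2 fold change was 0.21 ± 0.14 (SE, adjusted p = 0.361). *Ephx2* had 14288, 21722 and 30324 in WT and 8526, 17100 and 25947 in *Nod2*-/- livers. The ranges overlapped broadly (log2 fold change -0.55 ± 0.25, SE, adjusted p = 0.203). *Gulo* and *Itm2b* had fold changes of -0.29 and -0.27 and *Ndrg2* and *Tpt1* of 0.13 and 0.30, with adjusted p from 0.186 to 0.666.

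Grouped by role, each list held at most 3 genes past the FDR, beside a background of 1.16% passing and 52.3% with a fold change above 0 among all genes tested. Among 23 tested genes of liver metabolism and secretion, 16 had a fold change below 0, the median was -0.12, and only *Slc25a30* passed the FDR. *Cideb*, a lipid droplet protein that is needed for lipoprotein loading, had -0.01 ± 0.10, and *Cpb2*, a carboxypeptidase that slows clot lysis, had -0.07 ± 0.13 (SE). The mitochondrial form of phosphoenolpyruvate carboxykinase, *Pck2*, stood at the other end with 1.55 ± 0.42 (SE, adjusted p = 0.0692). Its normalized counts were 14.3, 31.9 and 84.95 (lowest, median, highest) in WT and 52.3, 95.2 and 262 in *Nod2*-/- livers, and WT replicate 3 alone reached into the *Nod2*-/- range. *Pck2* passed in 1 of 13 refits without 1 mouse, that without WT replicate 3 (1.94, adjusted p = 0.0188). It was at 1.97 (adjusted p = 0.0304) without WT replicate 3 and *Nod2*-/- replicate 7, and at 1.27 (adjusted p = 0.335) without WT replicates 2 and 4.

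The list headed interferon response and antigen processing was also drawn broadly. It holds the leukotriene receptor *Ltb4r2*, its lowest at -0.40, the death receptor *Tnfrsf10b*, its highest, and *Psmb5*, a subunit of the standard proteasome. Of 14 tested, 12 had a fold change above 0 and the median was 0.32, but *Psmb5* was the only 1 past the FDR. Leukocyte markers had higher medians in *Nod2*-/- livers too. The 5 Kupffer cell markers, led by *Clec4f*, summed to between 1544 and 2613 normalized counts in WT livers (median 1747) and between 1856 and 5646 in *Nod2*-/- livers (median 2503), with 4 of the 5 above 0 in fold change and none past the FDR. The 7 neutrophil markers, led by *S100a9*, summed to between 59.2 and 130 in WT livers (median 92.4) and between 88.8 and 15459 in *Nod2*-/- livers (median 325), 3 of them were tested, and all 3 were above 0 with none past the FDR. No marker of either list was at 0 in all livers, and the part of these cells in the interferon and antigen list was not tested. *Psme1* had 0.30 ± 0.12 and *Psme2* had 0.01 ± 0.08, although the 2 encode partner subunits of 1 activator ring (SE, adjusted p = 0.163 and 0.964). *Lcp1*, an actin bundling protein of leukocytes, had -0.23 ± 0.15. *Tnfrsf10b*, the mouse death receptor for TRAIL, had 1.22 ± 0.54 (SE, adjusted p = 0.199), with WT replicate 3 at 78.6 normalized counts and the WT median at 14.1. Without WT replicate 3 it was at 2.24 (adjusted p = 0.0102), and it passed in no other refit without 1 mouse. In a bulk library, fewer cells of a type and less RNA per cell cannot be told apart, which applies to these genes and to those that follow.

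The largest list was headed RNA processing, translation and protein turnover but was drawn broadly, and it also holds genes of other roles such as *Haus4* of the spindle and the leukotriene receptor *Ltb4r1*. It had 54 tested genes, 29 above 0 and 25 below, with a median of 0.03. Of these, 3 passed, *Psmb5* upward and *Ngdn* and the spindle gene *Haus4* downward. Among its abundant members, *Nedd8*, a ubiquitin-like modifier, had 0.08 ± 0.15 and *Dcaf11*, a substrate receptor of cullin ligases, had -0.15 ± 0.11 (SE). None of the 17 genes listed under cell cycle, growth control and DNA repair passed, and their median was 0.07, but *Haus4*, which serves mitosis, was not on that list. *Bin3* was the furthest from 0 among them, at 0.50 ± 0.15 (SE, adjusted p = 0.0900), and *Apex1*, the base excision repair endonuclease, had -0.20 ± 0.11.

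Of 7 solute carriers, only *Slc25a30* passed. The zinc and iron transporter *Slc39a14* had -0.05 ± 0.16, the mitochondrial iron importer *Slc25a37* had -0.38 ± 0.16, and the amino acid transporters *Slc7a7* and *Slc7a8* had 0.87 ± 0.45 and 0.64 ± 0.24 (SE, adjusted p from 0.138 to 0.874). Of the 5 tested secreted ribonuclease and purine salvage genes, 4 had fold changes below 0, and *Pnp2* was the 1 that passed. Since *Pnp2* met the count rule through WT livers alone, nothing is read from its call. *Rnase2a*, an eosinophil-associated ribonuclease, had 49.7, 125 and 273 normalized counts (lowest, median, highest) in WT and 0.98, 19.3 and 80.4 in *Nod2*-/- livers. The ranges met only between WT replicate 3 and *Nod2*-/- replicate 1, and its log2 fold change of -2.33 ± 0.58 did not pass (SE, adjusted p = 0.0601). *Rnase2a* passed with DESeq2 (adjusted p = 0.0137) and in 2 of 13 refits, without WT replicate 3 (-2.53) and without *Nod2*-/- replicate 1 (-2.89), and had an adjusted p of 0.312 without WT replicates 2 and 4.

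Some segment genes are best known from other organs. Of the 12 tested genes listed as surfactant, muscle and neuronal, 9 were below 0, the median was -0.24 and none passed. The cartilage gene *Cnmd*, which passed, is not on that list. *Chrna2* had a fold change of -1.10 ± 0.36 (SE, adjusted p = 0.104). *Tgm1*, a transglutaminase of cornified skin, had 0.73 ± 0.40 (SE, adjusted p = 0.288).

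*Sftpc* (ENSMUSG00000022097, 70520949 to 70524081, minus strand) had the lowest fold change of all, at -3.09 ± 0.85 (SE, adjusted p = 0.0712). Its normalized counts were 106, 1103, 559, 1786, 185 and 118 in WT replicates 1 to 6, and 9.52, 40.6, 53.4, 148, 251, 10.2 and 7.84 in *Nod2*-/- replicates 1 to 7. WT replicates 2, 3 and 4 stood above every *Nod2*-/- liver, and the other 3 WT livers lay within the *Nod2*-/- range. Surfactant protein C is a product of alveolar type II cells, and 7 other lung epithelium markers on the list were examined beside it. All 8 were found in the table, 5 were tested, each of the 5 had a fold change below 0, and none passed.

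WT replicates 2 and 4 were the 2 livers with the highest value for 7 of the 8 lung markers. The 8 markers summed to between 235 and 3309 normalized counts in WT livers (median 630) and between 47.6 and 543 in *Nod2*-/- livers (median 92.2), and *Sftpc* was the most abundant of them. With WT replicates 2 and 4 left out, the fold change of *Sftpc* was -1.69 (adjusted p = 0.413). *Sftpc* passed with DESeq2 (-3.13, adjusted p = 0.0154) and in 1 of 13 refits without 1 mouse, that without WT replicate 3 (-3.14, adjusted p = 0.0460). Without *Sftpc*, the other 7 markers summed to between 129 and 1523 in WT livers and between 38.1 and 293 in *Nod2*-/- livers. WT replicates 2, 3 and 4 stood above every *Nod2*-/- liver in that sum, and WT replicates 1, 5 and 6 lay within the *Nod2*-/- range. The part of lung RNA in the value of *Sftpc* was not tested.

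**Figure D5:**
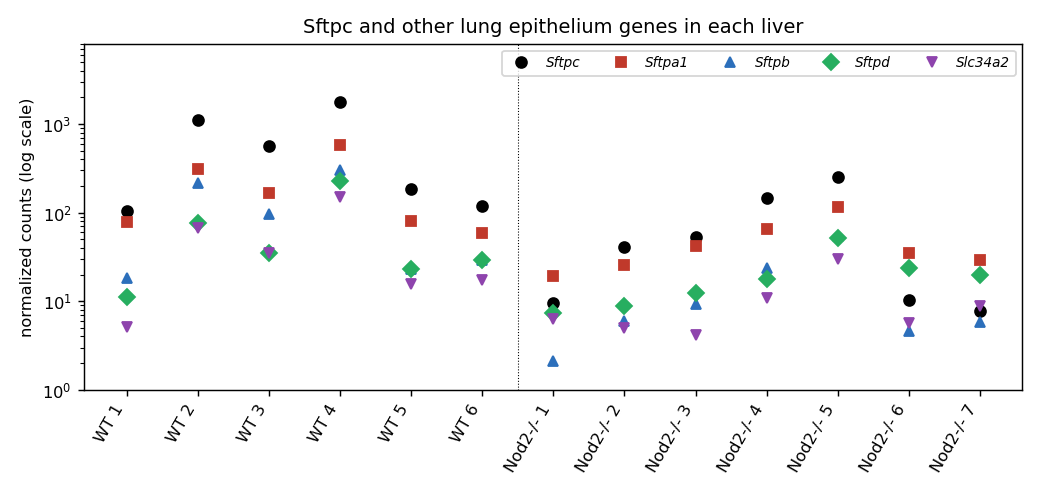
Normalized counts (y axis, log scale) of *Sftpc* and 4 other lung epithelium genes in each liver (x axis, WT 1 to 6 and *Nod2*-/- 1 to 7, divided by the dotted line). WT replicates 2 and 4 hold the highest values of each of the 5 genes.

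The nearest tested segment genes on each side of the 10 left-out genes had fold changes in both directions. They are not always adjacent genes. There were 17 such flanking segment genes, 11 with a fold change above 0 and a median of 0.18. *Spryd7* and *Cnmd* passed the FDR, both lower in *Nod2*-/- livers, *Cnmd* from a distance of 4806 kb before *Pcdh17*. Over all genes tested, 52.3% had a fold change above 0 and 1.16% passed, and nothing is read from the difference. On either side of *Lacc1* and *Ccdc122*, *Tsc22d1* had -0.32 and *Dnajc15* had -0.17. By gene start, *Tsc22d1* lies 609 kb before *Lacc1* and 622 kb before *Ccdc122*, and *Dnajc15* lies 796 and 784 kb after them. Around *Cebpe*, *1700123O20Rik* had 0.20 and *Slc7a8* had 0.64. Around *Phyhip*, *Polr3d* had 0.31 and *Bmp1* had 0.42, around *Mmp14*, *Mrpl52* had 0.30 and *Lrp10* had 0.32, and around *Klhl33*, *Tep1* had -0.09 and *Osgep* had -0.01. None of these passed the FDR, the lowest adjusted p being 0.0807 for *Bmp1*.

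The spread between mice of 1 genotype, which does not use the contrast between genotypes, was not larger in the segment than elsewhere. The median coefficient of variation was 15.7% for the segment genes and 17.7% for all genes tested in WT livers, and 17.5% and 19.1% in *Nod2*-/- livers. Among the named genes the spread ran from 3.76% (*Chmp7* in *Nod2*-/- livers) to 127% (*Tnfrsf10b* in WT livers). *Sftpc* was at 106% in WT and 124% in *Nod2*-/- livers.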

How the data were processed

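The labels and the study's methods state that polyadenylated RNA from individual livers was sequenced with a stranded kit, that reads were trimmed with Trimmomatic 0.33 and aligned to GRCm38 with TopHat2 2.1.1, and that the authors counted reads per GENCODE M16 gene and used DESeq2. The deposited table holds raw read counts of 53465 genes. The counting program and its strand setting are not given in the sources used here. A single empty line was dropped. Each library is 1 mouse. Depth ran from 13824780 to 20579984 counts, and small counts limit genes such as *Sall2* and *Pnp2*.

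Positions came from GENCODE M21 (53274 genes found). Genes were filtered with filterByExpr (13545 tested, holding 99.9% of the counts), scaled by TMM and tested with edgeR 4.0.16 in R 4.3.3 (glmQLFit and glmQLFTest, genotype alone, Benjamini-Hochberg over all tested genes). Normalized counts are counts divided by TMM-scaled library size. Tables were joined in Python 3.11.15 with pandas 2.3.3. DESeq2 1.42.0 was an alternative, as were RLE scaling, other filters, a robust fit, a replicate block and leaving out mice. On simulated counts for 13545 genes, 80 of 100 genes changed 2-fold and 95 of 100 changed 4-fold were recovered, with 7 false calls. Those counts were drawn for each gene on its own, with no mouse that stood apart over many genes. Recovery in the real libraries, where some mice stood apart, was not measured. No 2 libraries of a genotype were copies.

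The segment, its genes and the lists of roles were chosen with earlier results of these data known. Named are the genes past 5% FDR, the 5 highest and 5 lowest fold changes among genes whose average log2 CPM reached 1, the 8 most abundant per kilobase, the neighbors of left-out genes, up to 4 abundant genes per list and the first and last gene. Others are marked as picked out after their values were seen. Replicate numbers in the labels did not pair the mice.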

Additional observations from a re-analysis of the deposited data

Results flagged for a closer look

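In 112 groups of values (56 named genes in 2 genotypes), 5 held a single mouse whose distance from its nearest neighbor was a large share of the group's whole range (Dixon's test at 95%, for which chance gives about 1 in 20 groups). *Nod2*-/- replicate 7 had 56073 normalized counts of *Rnase4* and 12232 of *Ang*, with the next *Nod2*-/- livers at 24548 and 4923. *Nod2*-/- replicate 4 had 55448 normalized counts of *Clu*, with the next at 39426. *Nod2*-/- replicate 6 had 278 normalized counts of *Haus4*, with the next at 196. WT replicate 3 had 485 normalized counts of *Apex1*, below the next-lowest WT liver at 547.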

How the results depend on the processing

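The number of segment genes past 5% FDR depended on single mice. It was 10, and leaving out 1 mouse gave between 3 (each of WT replicates 1, 2 and 4 and *Nod2*-/- replicate 7) and 29 (without WT replicate 3), with 4 or 6 when WT replicate 5 or 6 was dropped and 4 to 6 when *Nod2*-/- replicate 2, 4 or 6 was. The background moved with it, from 0.30% to 8.49% of all genes. Leaving out WT replicate 3 and *Nod2*-/- replicate 7 together, a choice made after seeing the data, gave 17 genes, all 10 among them, beside 4.23% of all genes. Leaving out WT replicates 2 and 4 together, also chosen after seeing the data, gave 1, *Spryd7*, beside 0.179%. DESeq2 gave 32 genes, 11 higher and 21 lower, with all 10 among them, beside 8.41%. RLE scaling gave 10 (beside 1.14%), no low-count filter 9 (0.54%), the count rule as filter 10 (1.15%) and a robust fit 8 (1.07%). With the replicate number as a block, although the numbers did not pair the mice (no mouse correlated best with its own number), 2 genes passed, *Psmb5* (adjusted p = 0.0139) and *Spryd7* (adjusted p = 0.0197), beside 0.258%.

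The median log2 fold change of the segment stayed near 0, at -0.030 with DESeq2, -0.028 with no low-count filter, -0.026 without WT replicates 2 and 4, and between -0.015 and 0.0060 without 1 mouse. Segment genes whose groups did not overlap numbered 8 to 17 without 1 mouse, beside 1.54% (without WT replicate 2, 8 genes) and 4.47% (without WT replicate 3, 17 genes) of all genes, and 17 without WT replicate 3 and *Nod2*-/- replicate 7, beside 4.77%. Windows of 2.5 Mb held at most 3 genes past the FDR, against 5 in 5 Mb. The median share of a library's counts over all 13 mice was 1.61%, and 0.918% without the 5 most abundant genes. Of the 56 named genes, 9 changed sign in a refit, none of them past the FDR in any. Without 1 mouse, *Rnase4* lay between -0.41 and 0.0074, *Tep1* between -0.14 and 0.023, *Osgep* between -0.083 and 0.054, *Psme2* between -0.026 and 0.042, *Cideb* between -0.073 and 0.024, *Slc39a14* between -0.15 and 0.032, *Nedd8* between -0.016 and 0.14, and *Scara5* between -0.21 and 0.15. Without WT replicate 3 and *Nod2*-/- replicate 7, *Tep1* was at 0.023, *Homez* at -0.015 and *Psme2* at -0.027. There *Rnase2a*, *Tnfrsf10b*, *Pck2* and *Pnp* passed the FDR. Without WT replicates 2 and 4, *Osgep* was at 0.032, *Homez* at -0.044 and *Cideb* at 0.033. *Psme2* was at -0.0031 with RLE scaling, -0.010 with DESeq2, -0.0092 with no low-count filter and -0.027 with the block. Of the named genes without a call, *Sftpc*, *Rnase2a*, *Chrna2*, *Pck2*, *Bmp1* and *Bin3* passed with DESeq2, *Sftpc*, *Rnase2a*, *Chrna2*, *Tnfrsf10b*, *Pck2* and *Pnp* without WT replicate 3, and *Rnase2a* without *Nod2*-/- replicate 1. Low counts limit *Sall2*, *Pnp2* and the genes under the count rule.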
